A study of Mus musculus with 6 samples.

Results

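The aryl hydrocarbon receptor pathway was followed through 7 genes in fibroblasts grown from mouse heart and tail. They are Ahr and Arnt, which form the receptor complex, the repressor Ahrr, and the target genes Cyp1a1, Cyp1b1, Tiparp and Nqo1. Probes were taken by the RefSeq accession on the array, which gave 11 of 55681 probes, for 7 of the 37066 genes and unnamed features there. Ahrr was chosen by its measured heart-to-tail difference on these arrays, so its values are a description, with no test. The other members are known parts of the pathway, but they were named with results of the same arrays known, so their p-values are not independent support.

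Each culture's RNA was hybridised to an Agilent array of its own, in 1 colour. The groups were 3 cultures of heart fibroblasts and 3 of tail fibroblasts from male C57/Bl6-J mice labelled as 8 weeks old (8 to 10 weeks in the protocol). The labels name no drug or gene change. All were cells of finely cut heart or skinned tail, freed with trypsin or collagenase and kept on plastic in serum-containing medium for 5 days. The design text describes each replicate as pooled from 2 animals, and the labels do not tie cultures to animals. The protocol describes no sorting, and in such bulk RNA fewer cells of a type and less RNA per cell cannot be told apart.

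The aryl hydrocarbon receptor is a transcription factor of the bHLH-PAS family that waits in the cytosol with a heat shock protein chaperone and is released by planar aromatic ligands such as dioxin, polycyclic hydrocarbons and tryptophan derivatives. In the nucleus it pairs with ARNT and binds response elements with the core GCGTG near its target genes, among them the cytochrome P450 genes Cyp1a1 and Cyp1b1. AHRR, itself a target, competes for ARNT and the same elements, and TIPARP, an ADP-ribosyltransferase, also restrains the receptor, so the pathway carries its own brakes.

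Arrays labelled heart 2 and tail 1 stood apart from or ran against their labels, which bears on every value that follows. On heart 2, 99.3% of spots were flagged as well above background and the median signal was 883, against 47.3% to 55.2% and 21.5 to 33.9 on the other arrays, so the background flag says little on heart 2. Correlations across probes were 0.742 to 0.764 for heart 2 with each other array, and 0.957 to 0.988 for pairs without it. Tail 1 was closer to heart 1 (0.988) and heart 3 (0.979) than to tail 2 (0.969) and tail 3 (0.957). Results are therefore given for all 6 arrays by label and for 4 arrays without heart 2 and tail 1. Leaving out tail 1 rests on the outcome itself, so p-values on 4 arrays are too small by an unknown amount. All 7 fibroblast markers (Col1a1, Col1a2, Pdgfra, Ddr2, Dcn, Thy1 and Vim) were well above background on all 6 arrays, though on 4 arrays 2 of them rose (Pdgfra and Dcn) and 1 fell (Thy1).

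Levels below are log2 of the background-corrected signal minus the 75th percentile of its array, so 0 is a fairly bright spot, and levels of different probes are not set against each other. On this scale bright genes read low on heart 2, whose 75th percentile was 2321 against 385 to 613 elsewhere. The 7 fibroblast markers averaged 4.88 there and 7.13 to 7.33 on the other arrays. A lowest level on heart 2 therefore says little about a single gene. By label, limma called 0 of 19764 features (0% at adjusted p under 0.05), with 459 at an unadjusted p under 0.05. The median difference over all features was -0.41 by label and -0.07 on 4 arrays, so differences by label are to be read against -0.41. Without heart 2 and tail 1 it called 2957 of 20566 (14.4%), 1594 higher (7.75%) and 1363 lower (6.63%) in heart. Of the 5 members other than Ahrr in the fit on 4 arrays, Cyp1b1 was higher and Tiparp lower in heart. The 4 arrays set 2 cultures against 2, and 62.5% of all features tested did not overlap between them (25.5% higher and 36.9% lower in heart).

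The receptor itself was expressed in both tissues. The brighter Ahr probe read 2.14, 0.37 and 1.20 on heart 1, 2 and 3, and 1.65, 2.82 and 2.84 on tail 1, 2 and 3. The groups overlapped, since tail 1 lay between heart 1 and heart 3, and tail 2 and 3 were the brightest. By label the difference was -1.20 (SE 0.60, limma adjusted p = 0.715). Without heart 2 and tail 1 it was -1.16 (SE 0.34, adjusted p = 0.107). Leaving out 1 more of the 4 arrays sets a lone culture against 2, so the spread then comes from the pair and the lone culture is assumed to vary like it. In such a fit without heart 1 Ahr was past the threshold (-1.63, adjusted p = 0.0135). A dimmer Ahr probe, well above background only on heart 1 and 2, gave -0.20 on 4 arrays.

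Arnt, the shared partner of the receptor and of the hypoxia factors, did not pass in either comparison. Its brighter probe read 2.69, 0.72 and 2.81 on heart 1, 2 and 3, and 2.92, 2.61 and 2.75 on tail 1, 2 and 3. Apart from heart 2, which was the lowest, heart and tail arrays were interleaved. The 4-array difference was 0.07 (SE 0.15, adjusted p = 0.791) and the difference by label -0.69 (SE 0.62, adjusted p = 0.715). A dimmer Arnt probe differed by 0.32 on 4 arrays.

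The promoters shown are those of the repressor and of the 3 targets that hold the core of the response element. Ahrr and Tiparp were lower and Cyp1b1 higher in heart on 4 arrays, and a link between cores and direction was not tested. Each line gives the 250 bases before the transcription start from RefSeq, build GRCm38.p6, read along the gene, with the core GCGTG or its reverse complement CACGC in capitals.
Ahrr, chr13:74292332-74292581, minus strand: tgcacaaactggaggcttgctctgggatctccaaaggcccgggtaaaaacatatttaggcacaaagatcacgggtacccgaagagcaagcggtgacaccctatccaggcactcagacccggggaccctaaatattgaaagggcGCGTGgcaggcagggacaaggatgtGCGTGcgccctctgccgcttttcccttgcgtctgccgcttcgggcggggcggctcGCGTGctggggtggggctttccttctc
Cyp1a1, chr9:57697363-57697612, plus strand: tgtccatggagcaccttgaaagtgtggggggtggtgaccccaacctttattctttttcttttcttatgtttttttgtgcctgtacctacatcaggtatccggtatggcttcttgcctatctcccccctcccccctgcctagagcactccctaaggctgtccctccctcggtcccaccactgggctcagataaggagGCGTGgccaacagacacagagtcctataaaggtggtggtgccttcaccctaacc
Cyp1b1, chr17:79715062-79715311, minus strand: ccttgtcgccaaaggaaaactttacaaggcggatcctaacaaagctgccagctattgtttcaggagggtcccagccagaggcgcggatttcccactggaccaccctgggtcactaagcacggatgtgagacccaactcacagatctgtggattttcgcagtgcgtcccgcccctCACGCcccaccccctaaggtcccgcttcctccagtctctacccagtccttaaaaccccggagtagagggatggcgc
Tiparp, chr3:65528197-65528446, plus strand: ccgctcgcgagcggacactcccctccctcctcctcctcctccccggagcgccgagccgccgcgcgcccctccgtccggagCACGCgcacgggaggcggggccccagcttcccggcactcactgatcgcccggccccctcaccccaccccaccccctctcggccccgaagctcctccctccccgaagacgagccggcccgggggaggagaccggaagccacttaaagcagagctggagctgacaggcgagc

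Ahrr held 3 cores in this window, starting 107, 82 and 27 bases before the start, all on the strand of the gene. Of 32851 such windows in the table, 2.77% held 3 or more on either strand, and 28.2% held at least 1. Cyp1a1, Cyp1b1 and Tiparp held 1 each, starting 54, 76 and 170 bases before the start, the last 2 on the other strand. Arnt also held 1, Nqo1 held none, and the table has no entry for Ahr. Matches are to the letters only, and nothing in these arrays measures binding.

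Ahrr divided the arrays into bright and nearly dark ones. Its brighter probe (A_51_P254425) read -6.28, 1.08 and -5.87 on heart 1, 2 and 3, and -5.55, 2.38 and 2.46 on tail 1, 2 and 3. Tail 3, tail 2 and heart 2 were high, and tail 1, heart 3 and heart 1 were low and not well above background. In signal units the high arrays gave 4908 on heart 2 and 2006 and 2524 on tail 2 and 3, while the low ones gave 7.78 and 7.80 on heart 1 and 3 and 13.1 on tail 1. On heart 2 the Ahrr spot was thus brighter than that array's 75th percentile of 2321.

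By label the heart cultures averaged -3.69 ± 4.14 and the tail cultures -0.23 ± 4.60 (SD, n = 3 each), a difference smaller than the spread in either group. Ahrr was well above background on all arrays of neither group and so was not in the fit by label. Without heart 2 and tail 1, heart averaged -6.08 ± 0.30 and tail 2.42 ± 0.06 (SD, n = 2 each). The measured difference was -8.50. Against the lowest signals that counted as above background, the group mean of Ahrr was at least 120-fold lower in heart. Within slide rows the difference was -8.66 between heart 1 and tail 2 and -8.33 between heart 3 and tail 3. The authors' deposited table lists Ahrr, alone among the 7 genes, with a log2 fold of -7.47 for heart over tail. By label the brighter probe differed by -3.46. Over the 433 deposited probes, values of tail 1 centred on the 6-array mean correlated with the listed folds at 0.980. Heart 1 and 3 gave 0.970 and 0.982, heart 2 -0.573, and tail 2 and 3 -0.985 and -0.987. The listed folds thus do not follow all labels as given and are no independent support.

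A second Ahrr probe (A_55_P2128388) was far dimmer and moved the same way on 4 arrays, by -2.98. It read -7.26, -3.03 and -6.16 on heart 1, 2 and 3, and -7.18, -3.36 and -4.09 on tail 1, 2 and 3. It was well above background only on heart 2 and tail 2, so its size of change is bounded by background and it adds direction but little scale.

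**Figure D1:**
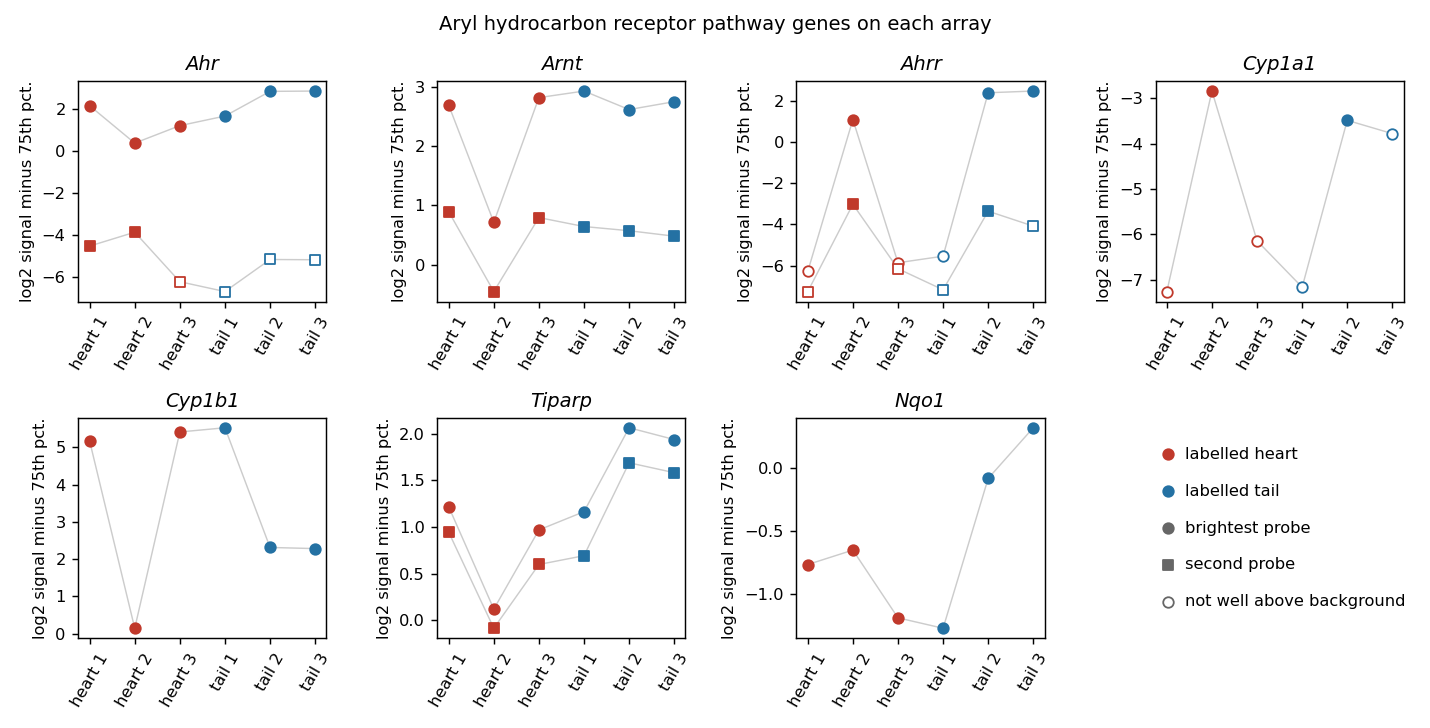
Each panel plots a gene's scaled log2 signal (vertical axis, log2 units relative to the array's 75th percentile) on the 6 arrays by label (horizontal axis), with red for arrays labelled heart, blue for tail, circles for the brightest probe, squares for a second probe open symbols where the spot was not well above background, and grey lines that only join a probe's values. Ahrr is open and near -6 on heart 1, heart 3 and tail 1 and filled on the other 3 arrays, while Cyp1b1 is above 5 on those same arrays and at most 2.31 on the others.

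Cyp1a1, the classical inducible target, stayed close to background on the arrays other than heart 2. Its probe read -7.26, -2.84 and -6.15 on heart 1, 2 and 3, and -7.17, -3.49 and -3.78 on tail 1, 2 and 3. It was well above background on heart 2 and tail 2 only and was therefore not tested in either comparison. In signal units it gave 34.3 and 33.3 on tail 2 and 3, against 3.95 and 6.42 on heart 1 and 3 and 4.26 on tail 1. The 323 on heart 2 lay below that array's median of 883, and under quantile normalization heart 2 (3.49) lay by heart 1 and 3 (3.03 and 3.11) and not by tail 2 and 3 (6.24 and 5.91).

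Cyp1b1, the P450 of mesenchymal cells that metabolizes estradiol and polycyclic hydrocarbons, ran opposite to Ahrr. It read 5.17, 0.15 and 5.41 on heart 1, 2 and 3, and 5.52, 2.31 and 2.28 on tail 1, 2 and 3. Heart 1, heart 3 and tail 1 were high, tail 2 and 3 were lower, and heart 2 was the lowest. Before scaling, the Cyp1b1 signal on heart 2 was 2572, against 1916 and 2229 on tail 2 and 3, so its place among these depends on the scaling. By label the difference was 0.20 (SE 1.45, adjusted p = 0.946), inside the spread between cultures, and its sign turned under median scaling (-0.73). Without heart 2 and tail 1, Cyp1b1 was 7.94-fold higher in heart (log2 difference 2.99, SE 0.16, limma adjusted p = 0.0015). Within slide rows it was 2.85 higher in heart 1 than tail 2 and 3.13 higher in heart 3 than tail 3.

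Tiparp was lower in heart 1 and 3 than in tail 2 and 3, with a much smaller difference than Ahrr. Its brighter probe read 1.22, 0.12 and 0.97 on heart 1, 2 and 3, and 1.16, 2.06 and 1.94 on tail 1, 2 and 3. Tail 2 and 3 were the brightest, tail 1 lay between heart 1 and heart 3, and heart 2 was the lowest. Before scaling, heart 2 had the highest Tiparp signal (2526, against 890 to 1752 on the other arrays), so its place depends on the scaling. By label the difference was -0.95 (SE 0.50, adjusted p = 0.715), and without heart 2 and tail 1 Tiparp fell by 0.91 (log2 difference -0.91, SE 0.17, adjusted p = 0.0336). That call was lost in 6 of 12 alternatives, of which 3 keep all 4 arrays: median scaling (adjusted p = 0.0685), no filter (0.221) and slide row as a block (0.053). The other 3 leave a lone culture in a group: without tail 2 (adjusted p = 0.28), tail 3 (0.214) or heart 3 (0.0629). Its second probe gave -0.86 on the 4 arrays.

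Nqo1, a quinone reductase driven by both the receptor and NRF2, read -0.77, -0.65 and -1.19 on heart 1, 2 and 3, and -1.27, -0.08 and 0.32 on tail 1, 2 and 3. Tail 2 and 3 were again highest, and tail 1 was the lowest of all. The difference was -0.52 by label (SE 0.53, adjusted p = 0.715) and -1.09 on 4 arrays (SE 0.24, adjusted p = 0.0519), which did not pass. It passed under 3 alternatives, with adjusted p from 0.0363 to 0.0469.

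At 9 of the 11 member probes heart 1 and 3 did not overlap tail 2 and 3. The 9 include both probes of Ahrr, which was chosen for this difference, and Cyp1a1, which was not well above background on either heart array. The 62.5% of features given above covers 1 filtered probe per gene, so the shares are not alike. By label 0 of the 11 were apart, against 10.1% of features (1.93% higher and 8.17% lower in heart). Tail 1 lay nearer to heart 1 and 3 than to tail 2 and 3 at 10 of the 11 probes, the exception being the dimmer Arnt probe. Over all probes, too, tail 1 correlated best with heart 1 (0.988) and heart 3 (0.979). Heart 2 lay nearer to tail 2 and 3 at 7 probes, but at 4 under quantile, median or normexp values. Such shares were not counted over all features, so neither count is read as a trait of these genes.

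Other parts of the pathway came from 8 lists of 61 genes, of which 46 were tested by label and 47 on 4 arrays. By label limma called 0 of them, with 1 at an unadjusted p under 0.05 (Cyp2s1, a dioxin-inducible P450, 1.92, SE 0.63), which was tested through the heart arrays, since it was not well above background on tail 2 and 3. On 4 arrays 2 were higher and 3 lower in heart, 10.6% of those tested against 14.4% of all features.

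Counts in the single lists that follow stand beside the 14.4% of all features called on 4 arrays. With so few genes in a list, none is read as a trait of that list. None of the 4 genes of the chaperone complex that holds the receptor passed (4-array limma adjusted p from 0.306 up). Their median difference was 0.06 against -0.07 over all features, and Hsp90ab1, the constitutive cytosolic HSP90, differed by 0.01 (SE 0.16). None of the 6 coactivators passed either, with Ncoa3 furthest at 0.76 (SE 0.22, adjusted p = 0.107). Of 3 corepressors that work with AHRR, the histone deacetylase Hdac4 fell by 0.86 (log2 difference -0.86, SE 0.16, adjusted p = 0.0361), Hdac5 differed by -0.69 (adjusted p = 0.0548) and Ankra2 by 0.03 (adjusted p = 0.924). With all 4 arrays kept, the Hdac4 call was lost under median scaling (adjusted p = 0.0548), with slide row as a block (0.0672) and without a filter (0.233). It was also lost in each fit without 1 of the 4 arrays (adjusted p from 0.0661 to 0.341), where a group holds a lone culture.

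Among 7 tested bHLH-PAS relatives, 1 rose and 1 fell. Epas1, which encodes HIF2A, a hypoxia factor that also pairs with ARNT, was 13.4-fold higher in heart on 4 arrays (log2 difference 3.74, SE 0.18, adjusted p = 0.00134). It read 6.81, 1.29 and 7.14 on heart 1, 2 and 3, and 7.18, 3.16 and 3.31 on tail 1, 2 and 3, the same division of arrays as Cyp1b1. A second Epas1 probe gave 3.79, but another probe (A_55_P2077448), well above background on all arrays, gave -0.25. Arnt2, the paralogue of Arnt, fell by 2.15 (log2 difference -2.15, SE 0.22, adjusted p = 0.00714), and the call was lost without a filter on dim probes (adjusted p = 0.0717). Hif1a differed by -0.13 (adjusted p = 0.588) and Clock by 0.35 (adjusted p = 0.242).

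Of the other classical and reported receptor targets, 0 of 7 tested passed on 4 arrays. By limma 4 had an unadjusted p under 0.05, as did 5901 of all 20566 features tested, so that count is not read as a result about these targets. Values ranged from -4.65 for the glutathione transferase gene Gsta2 (SE 1.72, adjusted p = 0.168) to 2.02 for Cyp2s1 (SE 0.56, adjusted p = 0.0922). Gsta2 read -7.21 and -2.07 on heart 1 and heart 3, and was not well above background on heart 1. It entered the test through the tail arrays, where it is high, so the size of its difference rests partly on a background reading. Cyp2s1 was not well above background on tail 2 and 3 and entered the test through the heart arrays, where it is high. Set against background, the means of the 2 groups differed at least 2.96-fold. Within slide rows heart 1 lay 1.09 above tail 2 and heart 3 lay 2.95 above tail 3. Xdh, xanthine dehydrogenase, differed by 1.37 (adjusted p = 0.0536), Aldh3a1, an aldehyde dehydrogenase, by -0.43 (0.291), the drug exporter gene Abcg2 by -0.35 (0.377) and Ugt1a6b, a glucuronosyltransferase, by 0.46 (0.432). A dimmer Aldh3a1 probe, well above background on all 6 arrays, went the other way (0.90 on 4 arrays), so the direction for Aldh3a1 depends on the probe. Cyp1a2 failed the filter. In the NRF2 list, which shares Nqo1 as a target, 1 of 12 tested genes passed. That was Gsta4, a glutathione transferase acting on lipid aldehydes, which fell (log2 difference -7.39, SE 0.17, adjusted p = 0.000548). It entered the test through the tail arrays, where it is high, and the size rests partly on a heart 3 reading not well above background. It read -3.96, 1.86 and -4.25 on heart 1, 2 and 3, and -3.55, 3.34 and 3.22 on tail 1, 2 and 3. Hmox1, heme oxygenase 1, differed by -0.49 (adjusted p = 0.133), the peroxiredoxin gene Prdx1 by 0.47 (0.17) and the glutathione transferase gene Gstm1 by -0.22 (0.426). Nfe2l2, which encodes NRF2, and its inhibitor gene Keap1 differed by 0.29 and 0.23 (adjusted p = 0.311 and 0.396). The authors' deposited table lists Gsta4 (-6.57) and Epas1 (3.94) from these lists, which differed by -3.13 and 0.53 by label.

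Genes of tryptophan and kynurenine metabolism were mostly too dim, with 3 of 7 tested and 0 called. Among them Il4i1 differed by -1.09 on 4 arrays (limma adjusted p = 0.0601). Of 5 genes that support P450 activity or share its substrates, 1 rose. That was Por, the reductase that passes electrons to microsomal P450s, at 1.35 higher in heart (SE 0.21, adjusted p = 0.0217), and the call was lost without a filter (0.15) and, with a lone tail culture, without tail 2 (0.117) or tail 3 (0.122). Cyp1b1 and Epas1 kept their calls in the 12 alternatives run on the 4 arrays, 4 of which leave a lone culture in a group.

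**Figure D2:**
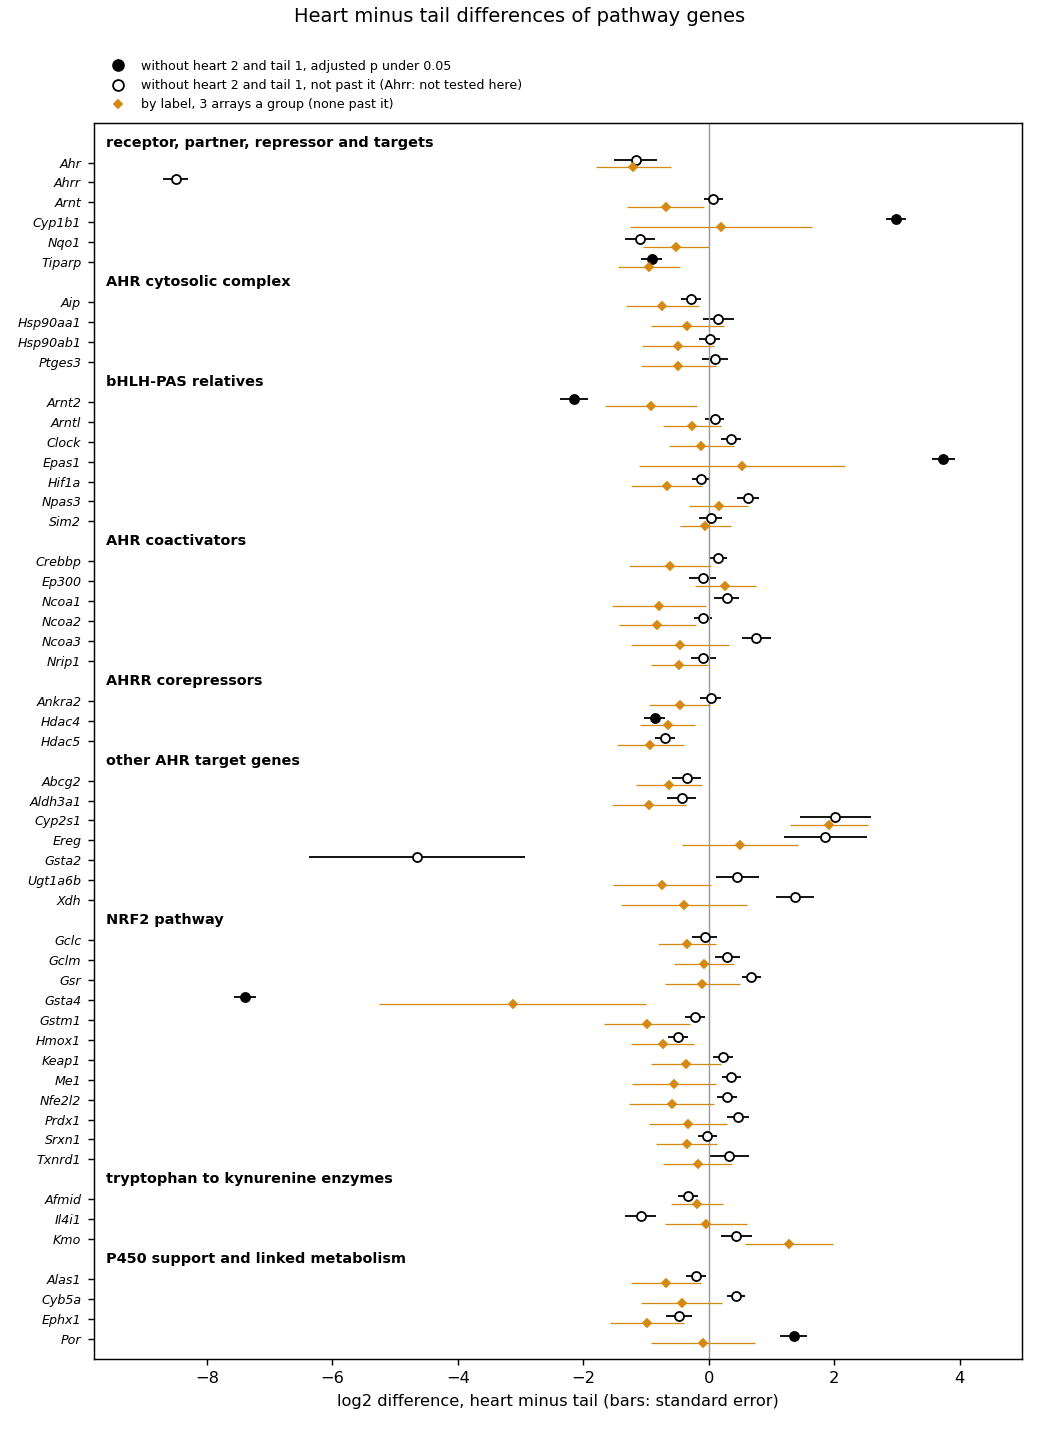
Heart minus tail log2 differences (horizontal axis) with standard errors for the tested genes of the pathway and its 8 surrounding lists (vertical axis), with 1 list gene not drawn. Black circles are the 4 arrays without heart 2 and tail 1, filled where the limma adjusted p is under 0.05 (Ahrr has no test and is drawn unfilled), and orange diamonds are all 6 arrays by label, of which none passed. Ahrr (-8.50, a description) and Gsta4 (-7.39) lie far to the left, Epas1 (3.74) and Cyp1b1 (2.99) to the right, and most other genes near 0.

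The genes whose pattern over the 6 arrays was nearest to that of Ahrr were Hoxc13, Cck, Gsta4, Gm2115 and Rab3b, out of 13166 named genes tested by label. These candidates were well above background on every heart or every tail array, a filter that Ahrr itself failed. Genes at background on heart 1, heart 3 and tail 1, as Ahrr was, were therefore not searched. Likeness was the root mean square difference between values centred on each gene's own mean, and it ranged from 0.55 for Hoxc13, a homeobox gene of the posterior body and hair follicle, to 0.70 for Rab3b, a vesicle GTPase. Without heart 2, 4 of these 5 stayed among the nearest 5, and Pcp4l1 took the place of Rab3b. Hoxc13 read -3.68, 1.84 and -4.53 on heart 1, 2 and 3, and -4.05, 3.93 and 3.95 on tail 1, 2 and 3, a pattern it was picked for.

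**Figure D3:**
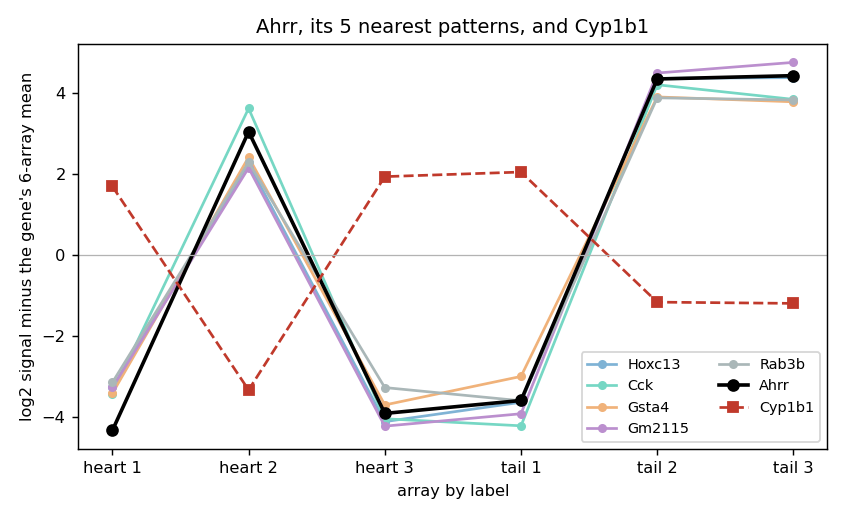
Scaled log2 signal minus each gene's mean over the 6 arrays (vertical axis) on each array by label (horizontal axis), for Ahrr in black, the 5 genes nearest to it in colour and Cyp1b1 as a dashed red line. Lines only join the values of a gene. Ahrr and its nearest genes are low on heart 1, heart 3 and tail 1 and high on heart 2, tail 2 and tail 3. Cyp1b1 shows the opposite split of the arrays, not the reverse order within it.

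On chromosome 13, Exoc3, a neighbour of Ahrr that encodes an exocyst subunit, was lower in heart on 4 arrays (log2 difference -1.19, SE 0.18, adjusted p = 0.0197). On the other side Pdcd6 and Sdha differed by -0.02 and -0.14 (adjusted p = 0.947 and 0.583). Gm41003, beyond Exoc3, had no named probe.

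Markers of other cell types differed between the same arrays. The counts of called markers below stand beside 14.4% of all features called on 4 arrays. The 6 endothelial markers averaged -0.94 and -0.71 on heart 1 and heart 3, with -2.35 and -2.29 on tail 2 and tail 3, and 4 of them rose. Among these, Tie1 and Emcn were not well above background on tail 2 and 3 and entered the test through the heart arrays. The macrophage and leukocyte list averaged 1.39 and 2.14 on heart 1 and heart 3, with 0.36 and -0.33 on tail 2 and 3, with 2 of 5 tested higher in heart. Smooth muscle genes averaged 2.30 and 2.19 on heart 1 and heart 3, with 4.44 and 4.17 on tail 2 and 3, with 3 of 5 lower in heart. Among the called markers, the leukocyte gene Ptprc was not well above background on tail 3, nor the smooth muscle gene Myh11 on heart 3. Each entered the test through the group where it is high. Of the Schwann list 1 of 2 tested fell (S100b), and of the cardiomyocyte list 1 of 4 rose (Tnnt2) and 1 fell (Actc1). Actc1 was not well above background on heart 1 and 3, and its group mean was at least 29.9-fold lower there. The part of these cells in the values of Ahrr and Cyp1b1 was not tested. Keratinocyte markers, which could come from remaining tail skin, averaged -3.87 and -3.44 on heart 1 and 3 and -3.39 and -3.49 on tail 2 and 3, with 0 of 3 tested called.

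**Figure D4:**
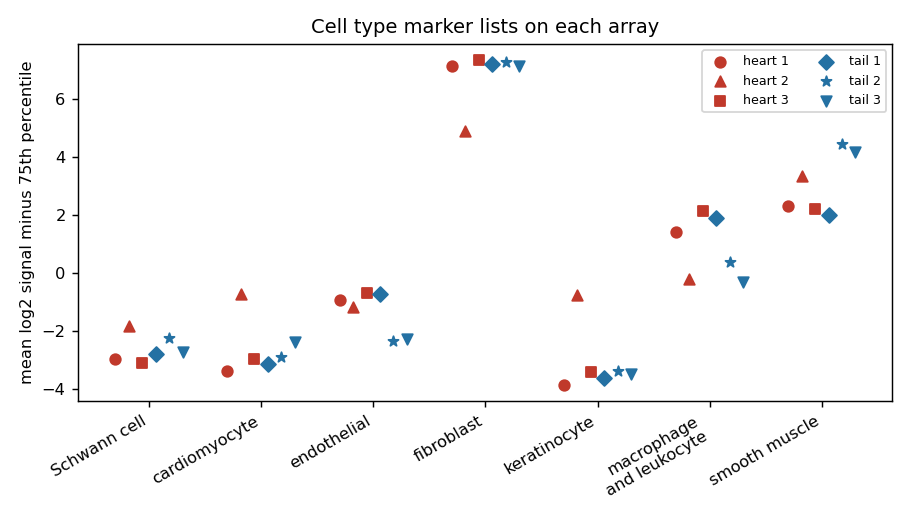
Mean scaled log2 signal of each marker list (vertical axis) on each array, for 7 cell types (horizontal axis), with red for arrays labelled heart and blue for tail and a symbol for each array. Fibroblast markers lie above 7 on every array except heart 2 (4.88), endothelial and leukocyte lists are higher on heart 1, heart 3 and tail 1 than on tail 2 and 3, and smooth muscle genes are lower there.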

How the data were processed

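Per the file headers, the deposited spot intensity values came from Agilent Feature Extraction 11.0.1.1, which subtracted background and corrected trends within each array without scaling arrays to one another, and flags of other kinds mark single spots. The table deposited by the authors gives 433 probes with a log2 fold change, a linear fold ratio and a signed fold score of heart over tail, and the sources used here do not say how it was made.

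Spots flagged as outliers were left out, and log2 processed signals were averaged per probe, from which the 75th percentile of the array's non-control probes was subtracted. Features missing on any array used were dropped. Tests covered features that every array of 1 group or the other showed well above background, with the brightest probe standing for a gene. Names came from RefSeq accessions (27235 probes) or the deposited table (27), and 28419 probes kept the array's own name. limma 3.58.1 in R 4.3.3 (lmFit, eBayes, two-sided, Benjamini-Hochberg over all features, 0.05) compared heart with tail, and was tested on simulated data. All 6 arrays lay on 1 slide in 2 rows and were scanned on 1 day. The number of arrays limits precision. With 2 pooled animals per replicate, p-values measure the spread between these cultures.

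The members and lists were chosen with earlier results of these data known. Named genes were the members, up to 4 genes per list (called genes by size, then the brightest), the 5 nearest to Ahrr and 2 neighbours on each side of it. Gsta2, Cyp2s1, Nfe2l2, Keap1, Pcp4l1 and single markers were picked with their values in view. Alternatives were other normalizations, background correction, filters, probe rules, blocks and leaving out each array. Normexp used median spot signals because the arrays as given hold no mean signal. Tables were read with Python 3.11.15 and pandas 2.3.3, and plots drawn with matplotlib 3.10.9. For 1 list gene the result is not reported here, and it stays in the counts.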

Additional observations from a re-analysis of the deposited data

How the results depend on the processing

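By label, 0 features were called in 13 of 15 alternatives; the replicate number as a block gave 197 (1 of them in the pathway lists, 0 members) and leaving out 1 array gave 0 to 246, the 246 without heart 1. Not every same-numbered pair of cultures deviated together (correlations 0.195, 0.258 and -0.331), and heart 2 correlated best with tail 3, so the numbers are taken as names only. The Cyp1b1 difference by label turned sign under median scaling (-0.73) and without heart 1 (-0.59), heart 3 (-0.72), tail 2 (-0.33) or tail 3 (-0.34), and reached 1.91 without heart 2. On 4 arrays the count of features fell to 716 without a filter and ranged from 1570 (without tail 3) to 3951 (without heart 1), with 1902 without tail 2, fits in which a lone culture is assumed to vary like the others. Beside Ahrr, the 2 called members became 1 under median scaling, without a filter or with slide row as a block, and 1 to 3 when 1 array was left out. The 5 called pathway genes became 10 with normexp, 9 with slide row as a block or with an intensity trend, 2 without a filter and 3 to 13 when 1 array was left out. Heart 2 lay nearer to tail 2 and 3 at 4 probes under quantile, median and normexp values in place of 7. The Ahrr difference on 4 arrays ran from -8.71 to -8.29 when 1 array was left out and was -7.71 with quantile normalization and -4.78 with normexp, which adds an offset to dim spots. Cyp1a1 and the second Ahrr probe sat near background, which limits the size of their differences.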
